A study of Capra hircus with 6 samples.

Results

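The genes described here are 36 interferon-stimulated genes, chosen by name, with earlier results of these data known, in whole-ovary RNA of 6 goats (Capra hircus). Of the 36 genes, 31 were matched to an entry among the 17504 genes of the deposited tables. MX2, OAS2, IFIT1, USP18 and IRF7 were not matched and are not analysed here. The samples came from 3 Tibetan goats, labelled non-prolific (Tibetan 1, 2 and 3), and 3 Jintang black goats, labelled prolific (Jintang 1, 2 and 3). Every goat was in the follicular phase, when follicles mature before ovulation. Treatment, age, parity and batch are not given in the labels. Each library holds 1 goat's ovary, so p-values measure the spread between goats, and the study compared ovarian transcripts of the breeds.

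Interferons are secreted signals of antiviral defence. Type I interferons bind the receptor IFNAR1/IFNAR2 and type II interferon binds IFNGR1/IFNGR2; the kinases JAK1, JAK2 and TYK2 then relay the signal to transcription factors, among them STAT2 with its partner IRF9, which switch on a large set of target genes. The products of these targets sense viral RNA, block translation, trap virions or tag proteins with the ubiquitin-like protein ISG15. In ruminants the same genes are also known as responders to interferon tau, the pregnancy signal of the conceptus, in the uterus, in circulating leukocytes and in the corpus luteum.

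Levels are in FPKM, a fragment count scaled by transcript length and by the mapped fragments of the library, so that levels of different genes can be set side by side. Each log2 difference below is the Jintang mean less the Tibetan mean of log2(FPKM + 1), which understates differences of low genes. All 31 genes had at least 1 FPKM in at least 3 libraries, the condition for being tested, as did 13067 genes in all. The sum of FPKM ran from 602255 to 682801 per library. Total fragments per library are unknown, and relative depths read from the lowest values lay between 0.924 and 1.03 of that of Tibetan 1. In the check of the tissue, the ovarian markers varied widely: INHA, an inhibin subunit of granulosa cells, ranged from 9.56 to 1194 FPKM, the theca enzyme gene CYP17A1 from 1.99 to 719 FPKM, the granulosa receptor FSHR from 0 (Tibetan 1) to 10.7 FPKM, and the oocyte factor GDF9 from 0.44 to 3.42 FPKM. Every goat is labelled follicular phase, but luteal genes differed widely. Their summed level was 19729 FPKM in Jintang 2 and 6405 FPKM in Jintang 1. It was 506 FPKM in Jintang 3 and 360 to 2570 FPKM in Tibetan ovaries. In Jintang 1 most of the sum was TIMP1 (5304 FPKM), and PTGFR (274 FPKM) and PRLR (53.4 FPKM) were highest there. Tibetan 3 was above Jintang 1 in CYP11A1 (911.5 against 515 FPKM), SCARB1 (156 against 114 FPKM) and LHCGR (53.4 against 5.71 FPKM). STAR was at 139 FPKM in both. In whole-ovary RNA, fewer cells of a type and less RNA per cell cannot be told apart.

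None of the 31 genes passed the test between the breeds. With limma, at a Benjamini-Hochberg adjusted p under 0.05, 0 of the 31 passed towards Jintang and 0 towards Tibetan ovaries (0% of all genes tested passed), and the smallest adjusted p among them was 0.743. At an unadjusted p under 0.05 there were also 0 of the 31, where 6.17% of all genes tested had such a p (2.82% higher and 3.35% lower in Jintang ovaries). With 1 library left out, SAMD9 had such a p without Tibetan 3 and IRF9 without Jintang 1, and the number of all genes moved from 806 to between 336 (without Tibetan 1) and 1874 (without Jintang 3). The median difference of the 31 genes was -0.08 log2, beside -0.10 over all genes tested. The difference was above 0 in 12 genes and below 0 in 19 (38.7% above 0, beside 41% above and 59% below among all genes tested), and with median-ratio scaling of the libraries, which moved the median of all genes to 0.02, 54.8% of the 31 and 51.9% of all genes were above 0. It was smaller than 0.5 log2 in either direction in 25 of the 31 genes (80.6%, beside 71.8% of all genes tested). The 95% intervals of the differences ran from -2.11 at the lowest (ISG15) to 1.74 at the highest (SAMD9), so that 3 goats against 3 do not show that the breeds are alike.

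**Figure D1:**
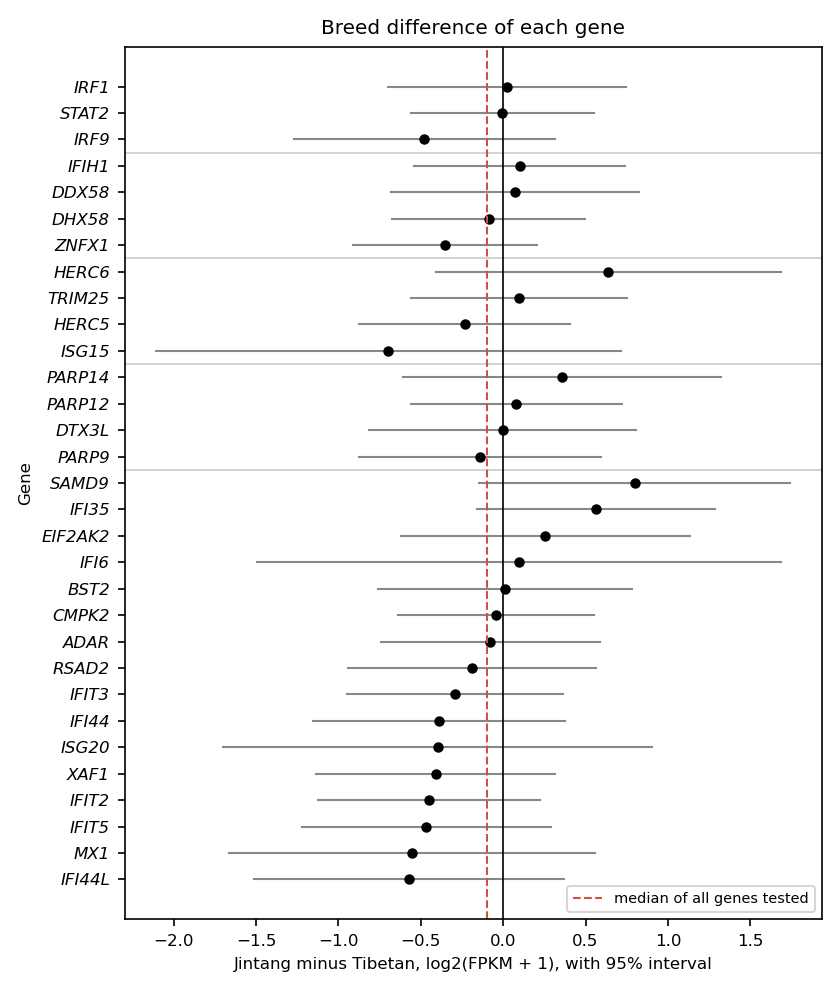
Difference between the breeds for each of the 31 genes, ordered by role from signalling factors at the top to effectors at the bottom. Points are Jintang minus Tibetan means of log2(FPKM + 1) with n = 3 goats per breed, bars are 95% intervals from limma, and the dashed line is the median of all 13067 genes tested (-0.10). Every interval includes 0.

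In 3 of the 31 genes (9.68%) the values of one breed all lay beyond those of the other, as they did in 9.9% of all genes tested, so this count is at the background. All 3 were lower in Jintang ovaries (6.7% of all genes tested were lower without overlap, and 3.2% higher). ZNFX1, a helicase that binds viral RNA, stood at 21.0, 18.3 and 19.4 FPKM in Tibetan 1, 2 and 3, against 15.9, 12.9 and 16.6 FPKM in Jintang 1, 2 and 3 (log2 difference -0.36, SE 0.24, limma adjusted p = 0.758). IFIT2, which binds viral RNA and holds back its translation, was at 5.50, 8.14 and 5.29 FPKM against 4.83, 3.44 and 4.63 FPKM (log2 difference -0.45, SE 0.29, limma adjusted p = 0.755). HERC5, the ligase that joins ISG15 to newly made proteins, was at 3.45, 4.62 and 3.38 FPKM against 2.97, 3.11 and 3.13 FPKM, so that its Jintang values differed little from each other (log2 difference -0.23, SE 0.28, limma adjusted p = 0.845). With median-ratio scaling the breeds overlapped in all 31 genes, while 9.52% of all genes tested did not overlap.

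Among the signalling factors, STAT2, the transcription factor that type I interferon receptors phosphorylate, had the narrowest range of the 31 genes. It stood at 22.5, 26.4 and 22.4 FPKM in Tibetan 1, 2 and 3, against 23.5, 21.1 and 26.6 FPKM in Jintang 1, 2 and 3, and its highest library held 1.26 times the lowest. The means were 23.8 ± 2.28 and 23.7 ± 2.78 FPKM (SD, n = 3), and the 95% interval of the log2 difference ran from -0.56 to 0.55. IRF9, its DNA-binding partner (GeneID 102190231), was more abundant and more variable, at 42.3, 42.2 and 52.1 FPKM in Tibetan and 49.7, 20.7 and 32.5 FPKM in Jintang ovaries. Jintang 2 and Jintang 3 lay below all Tibetan ovaries and Jintang 1 did not (log2 difference -0.48, SE 0.34, limma adjusted p = 0.760); the difference was -0.17 without Jintang 2 and -0.78 without Jintang 1. IRF1, a transcription factor induced most strongly by type II interferon, was at 15.2, 21.8 and 23.4 FPKM against 17.0, 16.6 and 28.8 FPKM, with Tibetan 1 the lowest and Jintang 3 the highest of the 6 (log2 difference 0.02).

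The cytoplasmic RNA sensors overlapped between the breeds, apart from ZNFX1. DHX58, which encodes LGP2, a regulator of the other sensors, was at 14.5, 12.6 and 15.3 FPKM in Tibetan and 13.4, 11.03 and 15.5 FPKM in Jintang ovaries (log2 difference -0.09, SE 0.26, limma adjusted p = 0.937). Its highest library held 1.41 times the lowest. IFIH1, the gene of MDA5, lay between 5.87 FPKM in Tibetan 1 and 9.24 FPKM in Tibetan 2, with Jintang values of 7.16, 7.28 and 8.93 FPKM inside that range. DDX58, the gene of RIG-I, was lower at 2.80, 4.71 and 6.13 FPKM in Tibetan 1, 2 and 3, against 5.62, 4.37 and 4.08 FPKM in Jintang ovaries. Both sensor genes had their lowest value in Tibetan 1, and neither breed lay above the other (log2 differences 0.10 and 0.07). With ZNFX1, the 4 sensor genes had log2 differences between -0.36 and 0.10.

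**Figure D2:**
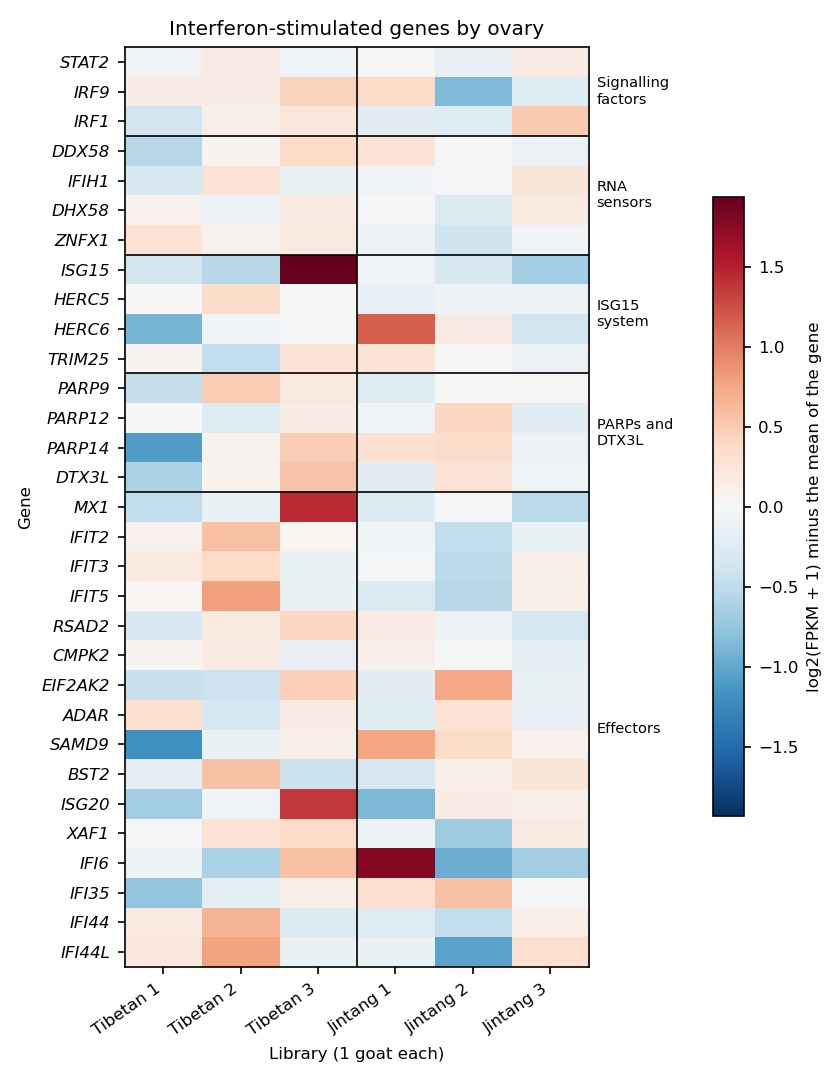
Level of each gene in each ovary as log2(FPKM + 1) minus the mean of that gene over the 6 libraries; rows are the 31 genes grouped by role, columns are libraries of 1 goat each, and the vertical line parts the breeds. Neither side of the line is uniformly red or blue. Dark cells of high values stand out for ISG15, MX1 and ISG20 in Tibetan 3 and for IFI6 and HERC6 in Jintang 1. Dark cells of low values include SAMD9 and PARP14 in Tibetan 1 and IFI44L in Jintang 2.

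The highest values of several genes came from single ovaries. In 5 of the 31 genes (16.1%) the highest library was at least 2 times the next highest, beside 8.88% of all genes tested. These were ISG15, MX1 and ISG20 in Tibetan 3 (1.47% of all genes tested had such a peak in that library) and IFI6 and HERC6 in Jintang 1 (2.91%). For the whole set the spread was not large: the median SD within a breed was 0.38 log2, beside 0.42 over all genes tested, and the highest library was at least 2 times the lowest in 20 of 31 genes (64.5%, beside 67.9%).

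ISG15 (GeneID 102169982) encodes the ubiquitin-like protein that interferon-treated cells attach to other proteins and also secrete. It stood at 21.3, 18.8 and 108 FPKM in Tibetan 1, 2 and 3, against 26.25, 22 and 17.09 FPKM in Jintang 1, 2 and 3. Tibetan 3 alone was high, at 4.12 times the next library, and the other 5 ovaries lay between 17.1 and 26.3 FPKM. The breed means were 49.4 ± 50.9 and 21.8 ± 4.58 FPKM (SD, n = 3; log2 difference -0.70, SE 0.61, limma adjusted p = 0.795). MX1 (GeneID 102188635), a dynamin-like GTPase that blocks viral nucleocapsids, also peaked in Tibetan 3, with 13.8, 17.9 and 55.0 FPKM in Tibetan and 16.1, 19.1 and 13.3 FPKM in Jintang ovaries. Tibetan 3 held 2.88 times the next library (log2 difference -0.56, SE 0.48, limma adjusted p = 0.792). ISG20, an exonuclease that degrades viral RNA, was the least abundant of the 31 genes, at 0.67, 1.52 and 5.86 FPKM against 0.46, 1.96 and 1.92 FPKM, and again Tibetan 3 stood alone (log2 difference -0.40, SE 0.57, limma adjusted p = 0.875).

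Without Tibetan 3 the log2 differences of these 3 genes changed sign, to 0.10 for ISG15, 0.03 for MX1 and 0.18 for ISG20. Of the 31 genes 10 had their highest value in Tibetan 3 (32.3%, beside 18% of all genes tested). With median-ratio scaling 6 did, and the share over all genes with that scaling is not given. RSAD2, the gene of the antiviral enzyme viperin, was at 3.76 FPKM there beside 1.85 to 3.13 FPKM elsewhere, and IFIT3 was at 15.4 FPKM, below 4 of the other 5 ovaries. Tibetan 3 also held the highest values of CYP17A1 (719 FPKM, next 152) and INHA (1194 FPKM, next 199). LHCGR and CYP19A1 peaked there too, at 53.4 FPKM (next 28.8) and 15.6 FPKM (next 7.34). The granulosa genes went both ways, as FOXL2 (1.75 FPKM) and HSD17B1 (0.55 FPKM) were lowest in Tibetan 3. AMH (0.95 FPKM) and FSHR (1.21 FPKM) were far below Jintang 3 (44.3 and 10.7 FPKM). Of the neutrophil list S100A8 (23.2 FPKM, next 8.38) and S100A9 (51.6 FPKM, next 5.55) were highest in Tibetan 3. ELANE was not, at 7.89 FPKM beside 23.1 FPKM in Tibetan 1, and the receptors CXCR1, CXCR2 and CSF3R were at most 0.46 FPKM there. The part of theca, granulosa or neutrophil RNA in the level of ISG15, MX1 and ISG20 was not tested. MX1 lies next to MX2, a close relative without a matched entry, and reads of the pair may be shared.

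The remaining genes of the ISG15 system had no peak of at least 2 times the next library in Tibetan 3, although TRIM25 was highest there in FPKM. TRIM25, a ubiquitin ligase that activates RIG-I, lay between 15.9 and 27.4 FPKM, with Tibetan 3 (27.4) and Jintang 1 (27.0) close together at the top. HERC6, a ligase related to HERC5, was at 1.41, 3.34 and 3.43 FPKM in Tibetan and at 8.99, 3.98 and 2.52 FPKM in Jintang ovaries (log2 difference 0.64, SE 0.46, limma adjusted p = 0.760). Jintang 1 held 2.26 times the next library, and Jintang 3 lay below Tibetan 2 and 3. HERC5 and HERC6 are adjacent in the RefSeq gene order of assembly ARS1.2, and they peaked in different ovaries, HERC5 in Tibetan 2 and HERC6 in Jintang 1, in FPKM and in each of the 3 other scalings. Without Jintang 1 the HERC6 difference was 0.22.

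IFI6 (GeneID 102185230), a small membrane protein of interferon-treated cells, was the most abundant of the 31 genes, with a mean of 94.6 FPKM. It stood at 69.6, 48.1 and 111 FPKM in Tibetan 1, 2 and 3, against 255, 37.8 and 46.4 FPKM in Jintang 1, 2 and 3, so that the highest and the lowest value were both Jintang. The breed means were 76.1 ± 31.8 and 113 ± 123 FPKM (SD, n = 3), the within-breed SD of 1.14 log2 was the largest of the set, and the difference was 0.10 log2 (SE 0.69, limma adjusted p = 0.9753). Without Jintang 1 the difference was -0.76, and without Tibetan 2 it was -0.19. SAMD9, a cytoplasmic restriction factor of poxviruses, was likewise highest in Jintang 1, at 6.13 FPKM, with 4.36 and 3.45 FPKM in Jintang 2 and 3 and 0.85, 2.86 and 3.53 FPKM in Tibetan 1, 2 and 3. It had the largest difference towards Jintang (0.80 log2, SE 0.41, limma adjusted p = 0.743, the smallest unadjusted p of the set at 0.0875), and Tibetan 3 lay above Jintang 3. Without Tibetan 1, its lowest library, the difference was 0.41.

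Jintang 1 was the library with the most macrophage transcripts: it was highest for 12 of 12 tested macrophage markers, whose summed level was 1883 FPKM there, between 223 and 459 FPKM in the other Jintang ovaries and between 128 and 375 FPKM in Tibetan ovaries. Macrophage markers not tested were MARCO and SPI1, both below 2.5 FPKM in every library. In Jintang 1 the summed level of luteal genes was also high, below that of Jintang 2 only, and most of it was TIMP1. The part of macrophage or luteal RNA in the level of IFI6, HERC6 and SAMD9 was not tested. These 3 were the only genes of the 31 with their highest FPKM in Jintang 1 (9.7%, beside 12.6% of all genes tested), and ISG20 was lowest there in all 4 scalings. With median-ratio scaling 10 were highest in Jintang 1. That scaling divides Jintang 1 by 0.88, the smallest divisor of the 6 libraries, and so raises every gene there. The share over all genes with it is not given, so the 10 cannot be read as a trait of the set.

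**Figure D3:**
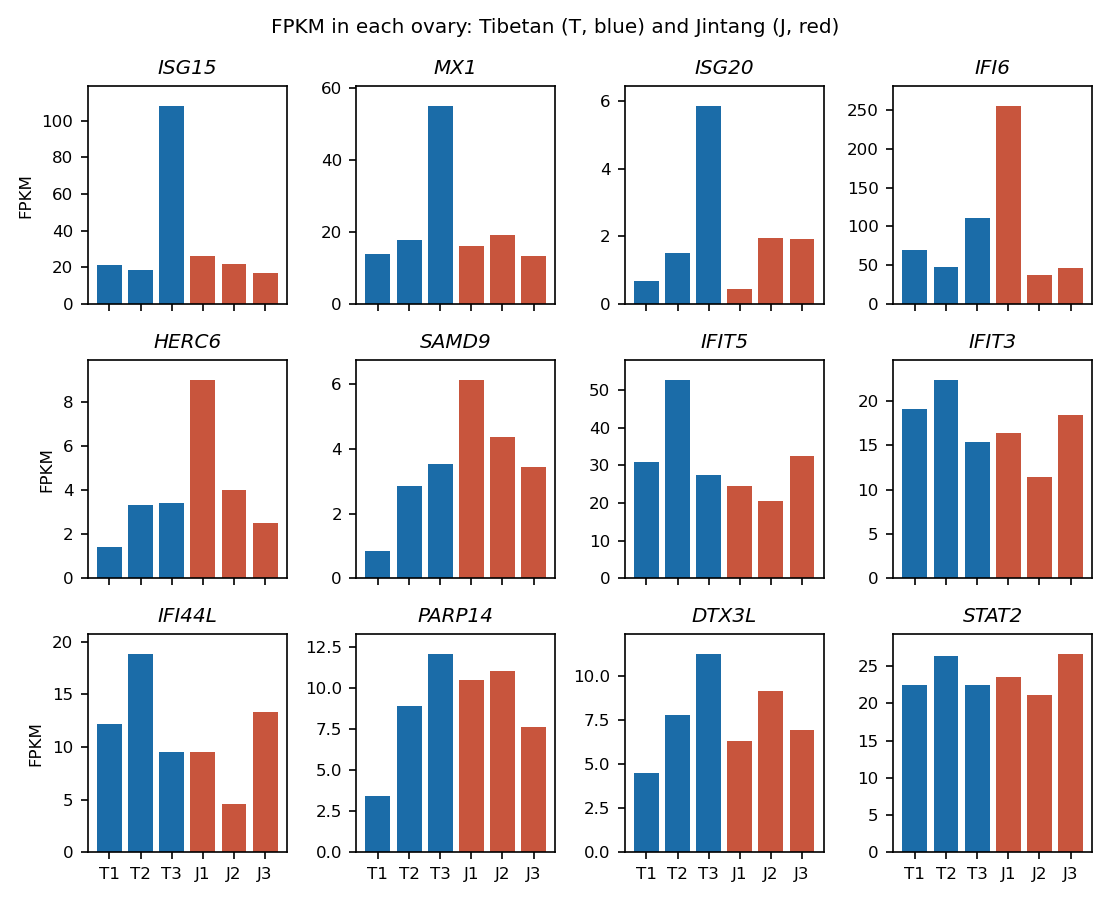
FPKM of 12 of the genes in each ovary, with the vertical axis starting at 0 and its scale set for each gene; blue bars are Tibetan 1 to 3 (T1 to T3) and red bars Jintang 1 to 3 (J1 to J3). ISG15, MX1 and ISG20 peak in Tibetan 3, IFI6, HERC6 and SAMD9 in Jintang 1, and IFIT5, IFIT3 and IFI44L in Tibetan 2, while STAT2 stays between 21.1 and 26.6 FPKM.

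Another pattern joined the IFIT genes and the IFI44 pair. IFIT5, IFIT3 and IFIT2 encode RNA-binding proteins with tetratricopeptide repeats and lie together in the RefSeq order of ARS1.2, with 1 unnamed coding gene between IFIT5 and IFIT3; IFI44L and IFI44 are adjacent to each other at another locus. All 5 genes were highest in Tibetan 2 and lowest in Jintang 2, and the same 2 libraries were the extremes with each of the 3 other scalings. This order of extremes was held by these 5 of the 31 genes, beside 6.09% of all genes tested. The 5 were set together because they share it, so their likeness is not a test of it. IFIT5 (GeneID 102180993) was at 30.8, 52.6 and 27.3 FPKM in Tibetan and at 24.5, 20.4 and 32.4 FPKM in Jintang ovaries (log2 difference -0.47, SE 0.33, limma adjusted p = 0.760, and -0.19 log2 without Tibetan 2). IFIT3 was at 19.1, 22.4 and 15.4 FPKM against 16.4, 11.5 and 18.4 FPKM, again with Jintang 3 inside the Tibetan range. These close relatives can share reads, so that the split of fragments between them is uncertain.

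IFI44L stood at 12.2, 18.8 and 9.58 FPKM in Tibetan 1, 2 and 3, against 9.53, 4.62 and 13.3 FPKM in Jintang 1, 2 and 3, a range of 4.08 times from lowest to highest. Its difference of -0.57 log2 (SE 0.41, limma adjusted p = 0.760) was the second most negative of the set. IFI44 was lower, at 8.06, 11.6 and 5.63 FPKM against 5.72, 4.71 and 7.73 FPKM. Jintang 3 lay above at least 1 Tibetan ovary for both genes, and without Jintang 2 the difference of IFI44L was -0.19. BST2 (tetherin), which holds budding virions at the cell surface, was also highest in Tibetan 2 (17.4 FPKM), but its lowest value was in Tibetan 3 (8.26 FPKM), and its Jintang values were 8.88, 12.4 and 13.6 FPKM. Lymphocyte markers were highest in summed level in Jintang 3 (170 FPKM) and Tibetan 2 (149 FPKM) and lowest in Jintang 2 (63.3 FPKM), with 77.1 to 117 FPKM in the other 3 libraries. By mean log2(FPKM + 1) Tibetan 1 and Jintang 2 were equally low (2.08), and Tibetan 1 was the lowest library for 7 of the 15 genes and Jintang 2 for 6. The B cell marker MS4A1 was at or below 0.08 FPKM in every library. The part of lymphocyte RNA, or of the luteal RNA of Jintang 2, in the IFIT and IFI44 levels was not tested.

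The ADP-ribosyltransferase genes PARP9 and PARP14 and the ligase gene DTX3L, whose product forms a complex with PARP9, are neighbours in ARS1.2, in the order PARP9, DTX3L, PARP14. All 3 had their lowest value in Tibetan 1 in FPKM and in each of the 3 other scalings. PARP14 was at 3.42 FPKM there, while Tibetan 2 and 3 had 8.86 and 12.04 FPKM and Jintang 1, 2 and 3 had 10.48, 11.01 and 7.63 FPKM. DTX3L was at 4.47 FPKM in Tibetan 1 and between 6.31 and 11.2 FPKM elsewhere, and PARP9 at 4.66 FPKM and between 5.56 and 9.88 FPKM. The breeds overlapped in each (log2 differences 0.00 for DTX3L and -0.14 for PARP9). For PARP14 the difference was 0.36 (SE 0.42, limma adjusted p = 0.845), and -0.10 without Tibetan 1. PARP12, at another locus, did not share this order: it lay between 8.60 FPKM in Tibetan 2 and 14.0 FPKM in Jintang 2.

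Tibetan 1 was the lowest library for 10 of the 31 genes (32.3%, beside 21% of all genes tested) and the highest for 2 (6.5%, beside 21.9%). Jintang 2 was the lowest for 11 (35.5%, beside 25.7%) and the highest for 3 (9.7%, beside 20.5%). Tibetan 2 was the highest for 10 (32.3%, beside 18.4%) and the lowest for 3 (9.7%, beside 13%). Jintang 3 was the highest for 3 (9.7%, beside 8.53%) and the lowest for 4 (12.9%, beside 5.18%), while Tibetan 3 was the lowest for 1 (3.2%, beside 9.93%) and Jintang 1 for 2 (6.5%, beside 25.2%). The highest library was the same in all 4 scalings for 23 of the 31 genes and the lowest for 28. Among the genes lowest in Tibetan 1 was IFI35, an interferon-induced leucine-zipper protein, at 14.7, 22.5 and 27.9 FPKM in Tibetan and at 32.5, 38.5 and 24.98 FPKM in Jintang ovaries. Jintang 3 lay below Tibetan 3 (log2 difference 0.56, SE 0.31, limma adjusted p = 0.743), and without Tibetan 1 the difference was 0.32. EIF2AK2, the gene of the kinase PKR that halts translation on double-stranded RNA, was highest in Jintang 2 (14.9 FPKM) and Tibetan 3 (12.1 FPKM) and lay between 6.05 and 7.60 FPKM in the other 4 ovaries. ADAR, which edits adenosine to inosine in double-stranded RNA, had high and low values in both breeds, at 40.1, 25.1 and 35.9 FPKM against 27.2, 39.5 and 28.6 FPKM (log2 difference -0.08, SE 0.29, limma adjusted p = 0.953).

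The last effector genes were even or low. CMPK2, a mitochondrial nucleotide kinase, was at 7.58, 8.22 and 6.38 FPKM in Tibetan and 7.85, 7.23 and 6.31 FPKM in Jintang ovaries (log2 difference -0.04, SE 0.26, limma adjusted p = 0.968). RSAD2, its neighbour in the RefSeq order, lay between 1.85 and 3.76 FPKM. Both were lowest in Jintang 3. XAF1, a protein of interferon-induced cell death, was at 6.30, 7.95 and 8.73 FPKM in Tibetan and at 5.96, 3.63 and 7.4 FPKM in Jintang ovaries, and Jintang 3 lay above Tibetan 1 (log2 difference -0.41, SE 0.32, limma adjusted p = 0.775, and -0.17 log2 without Jintang 2). By mean level 10 of the 31 genes were above 20 FPKM, 15 lay between 5 and 20 FPKM and 6 were below 5 FPKM; the median was 10.5 FPKM, beside 12.9 FPKM over all genes tested.

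Of 9 interferon ligand genes listed, 3 were matched, and their transcripts were close to the floor of the measurement. IFNG was at most 0.41 FPKM, IFNK at most 0.51 FPKM and IFNE at most 0.76 FPKM. Each is listed at 0 in at least 1 library. IFNA1, IFNB1, IFNW1, IFNT (interferon tau), IFNL1 and IFNL3 were not matched, so the levels of these interferons are not known here. Of 10 tested genes of the list of receptors and their signalling 0 passed the limma test in either direction, 0 had an unadjusted p under 0.05, and the median difference was 0.01 log2. IFNAR2 lay between 15.1 and 24.6 FPKM. IFNAR1 was at 17.9, 21.8 and 37.7 FPKM in Tibetan and at 45.9, 37.7 and 20.8 FPKM in Jintang ovaries. JAK2 did not overlap, at 7.27, 7.29 and 6.18 FPKM against 4.39, 5.05 and 5.25 FPKM (log2 difference -0.42, SE 0.26, limma adjusted p = 0.743). It was 1 of the 10 genes, where 6.7% of all genes tested were lower in Jintang ovaries without overlap.

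Of 14 tested genes of sensing pathways upstream of interferon 0 passed in either direction, and 0 had an unadjusted p under 0.05 (median 0.19 log2). IRF3, the factor that starts interferon transcription, was at 49.4, 35.98 and 46.4 FPKM in Tibetan and at 33.5, 31.3 and 34.8 FPKM in Jintang ovaries, without overlap (limma adjusted p = 0.756). The adaptor MYD88 also did not overlap, at 25, 23.01 and 24.67 FPKM against 21.4, 18.5 and 17.1 FPKM. These were 2 of the 14 genes, where 6.7% of all genes tested were lower in Jintang ovaries without overlap. IRF5, TLR4 and TLR7, which macrophages express, were highest in Jintang 1 (14.4, 11.3 and 5.54 FPKM) and at most 4.07, 3.58 and 1.73 FPKM elsewhere. A list of mainly negative regulators also held UBA7, the activating enzyme of ISG15 conjugation, at 5.12 to 14.1 FPKM; 0 of its 6 tested genes passed (median 0.23 log2). SOCS3, a feedback inhibitor of JAK kinases, was at 11.5, 6.54 and 24.5 FPKM against 65.2, 33.6 and 16.5 FPKM (log2 difference 1.35, SE 0.58, limma adjusted p = 0.743, unadjusted p 0.0463). It was 1 of the 6 genes, where 2.82% of all genes tested had such a p higher in Jintang ovaries. PIAS1 of the same list was lower in Jintang ovaries without overlap, at 14.93, 14.37 and 14.02 FPKM against 11.99, 8.83 and 11.36 FPKM (log2 difference -0.41). PIAS1 was also 1 of the 6, where 6.7% of all genes tested were lower without overlap.

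Other interferon-induced genes showed the same absence of calls: of 51 listed, 29 were matched and 28 tested, and 0 passed in either direction (15 above 0 and 13 below, median 0.06 log2). TOR1B was at 9.30, 13.0 and 22.5 FPKM in Tibetan and at 30.2, 45.2 and 18.4 FPKM in Jintang ovaries (log2 difference 1.02, SE 0.42, limma adjusted p = 0.743, unadjusted p 0.0408). It was the only 1 of the 28 with an unadjusted p under 0.05, beside 6.17% of all genes tested. LGALS3BP, a secreted scavenger-receptor-domain protein, had 38.1, 53.4 and 92.0 FPKM in Tibetan and 105, 183 and 54.3 FPKM in Jintang ovaries. The chemokine CXCL10, a classical target of type II interferon, was highest in Jintang 3 (55.5 FPKM) and Tibetan 2 (31.6 FPKM) and lay between 8.52 and 14.2 FPKM elsewhere. CXCL9 had the same pair of libraries at the top, at 44.1 and 30.7 FPKM, but Tibetan 1 was close to Tibetan 2 at 28.05 FPKM. The other libraries lay between 13.85 and 21.35 FPKM.

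Antigen-processing genes, many of which interferon also induces, gave 0 calls, and 0 with an unadjusted p under 0.05, among 11 tested genes; 9 of the 11 were above 0 (median 0.40 log2). TAP1, the peptide transporter, was at 10.7, 22.1 and 22 FPKM in Tibetan and at 23.7, 30.7 and 30.4 FPKM in Jintang ovaries without overlap (log2 difference 0.66, SE 0.33, limma adjusted p = 0.743). It was 1 of the 11 genes, where 3.2% of all genes tested were higher in Jintang ovaries without overlap. The immunoproteasome subunit PSMB9 was at 14.5, 60.1 and 147 FPKM against 56.7, 170 and 83.7 FPKM. In Tibetan 1, 9 of the 11 were at their lowest. The mean log2(FPKM + 1) of the list was 4.82 in Tibetan 1 and between 5.595 and 6.029 in the other 5 libraries, a wider range than that of the 31 interferon-stimulated genes, whose means were 3.35, 3.68 and 3.86 in Tibetan and 3.64, 3.46 and 3.53 in Jintang ovaries. Over those 31 genes the highest and the lowest mean were both Tibetan.

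**Figure D4:**
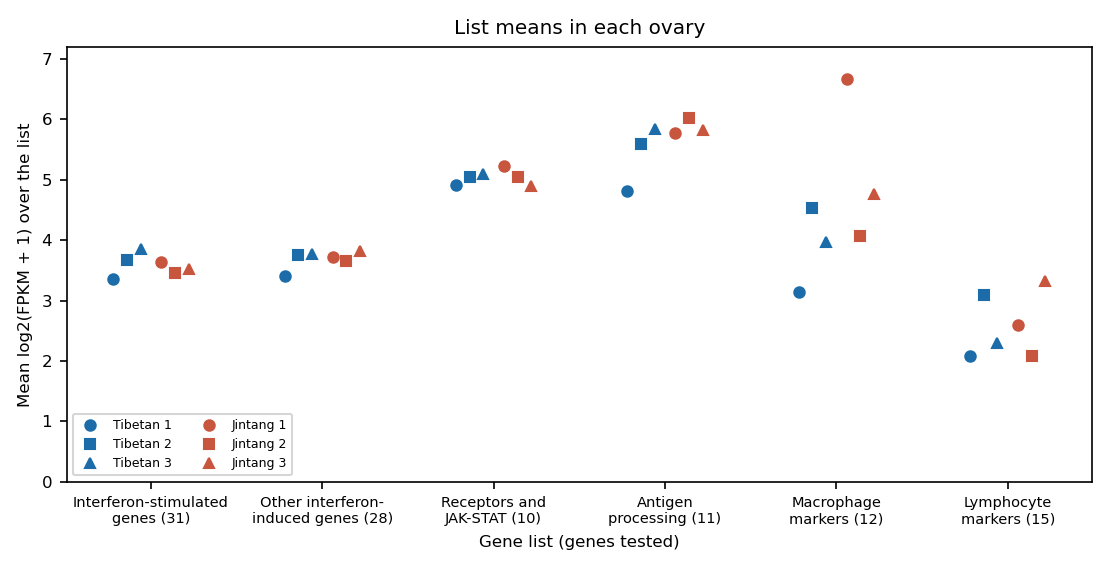
Mean log2(FPKM + 1) of 6 gene lists in each ovary; the number of genes tested is in brackets, colours mark the breed and symbols the goat. The 31 interferon-stimulated genes lie between 3.35 and 3.86 in all ovaries, whereas macrophage markers reach 6.68 in Jintang 1 and 3.15 in Tibetan 1.

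The cell-type lists had a larger spread between goats of a breed than the interferon-stimulated genes, as a description without a test. The median SD within a breed was 1.104 log2 for macrophage markers (12 of 12 above 0, median 1.23), 0.72 for lymphocyte markers (9 of 15 above 0, median 0.15) and 0.52 for endothelial markers (8 of 9 above 0, median 0.60), beside 0.38 for the 31 genes. Of 9 matched dendritic cell markers 4 were tested (median 0.68); TCF4, which other cells also express, lay between 14.9 and 30.9 FPKM and BATF3 reached 47.3 FPKM in Jintang 2, while FLT3 and CLEC9A were at most 1.02 and 1.48 FPKM, and of 6 matched neutrophil genes 3 were tested (SD 1.85, median -0.19). Luteal genes had the widest spread (SD 2.05, 7 of 7 above 0, median 2.12), and the ovarian markers, which share STAR and LHCGR with them, had an SD of 1.67 (6 of 11 above 0, median 0.23). Of 9 heat-shock and immediate-early genes 8 were below 0 (median -1.22), and 4 were lower in Jintang ovaries without overlap (6.7% of all genes tested). The erythrocyte genes ALAS2 and AHSP were at most 0.67 FPKM. In these lists 0 genes passed the limma test (0% of all genes tested passed); an unadjusted p under 0.05 was reached by 3 macrophage, 1 lymphocyte, 2 endothelial and 1 luteal gene, all higher in Jintang ovaries, and by 7 heat-shock and immediate-early genes, all lower. Among all genes tested 2.82% had such a p higher and 3.35% lower in Jintang ovaries, and the lymphocyte count is 1 of 15 genes.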

How the data were processed

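Total RNA of each ovary (TRIzol) went into an NEBNext library, per the labels' protocols. The authors deposited 1 table of FPKM values per goat. TopHat2 2.0.10, Bowtie2 2.1.0 and RSEM 1.2.0 are listed in the submitters' processing notes without roles; the sources used here give no build, annotation, strand or read length. Symbols came from a RefSeq table of ARS1.2 (16459 IDs by GeneID, 9 by accession, 1036 without a match), and 57 of 250 list entries matched no gene. Sequences were not used here.

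Breeds were compared with limma 3.58.1 (R 4.3.3, trended eBayes) on log2(FPKM + 1) with a single breed term, in genes with at least 1 FPKM in 3 libraries, with Benjamini-Hochberg adjustment over all of them, 2-sided, threshold 0.05. The procedure was also run on simulated data with differences of at least 1 log2. All 31 genes had smaller differences, so that run does not show what could be detected among them. Relative depth is the mode of ratios of low values from 0.15 to 1 FPKM. Figures used matplotlib 3.10.9.

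The members and lists were chosen with earlier results of these data known. The rule for named genes gives in full members with an unadjusted p under 0.05, without overlap, with the 4 highest means, the 4 largest differences per direction or the 3 largest and smallest ranges, and ISG15, MX1 and STAT2, and up to 4 genes of smallest p per other list; other genes were named after their values were seen. Its part on the other lists was followed only in part: for the macrophage, endothelial and heat-shock lists, among others, counts and medians are given instead. The ranking of other genes by likeness in that rule was not run. The alternatives changed the pseudocount (0.1 or 0.01), the filter (none, or 5 FPKM), the scaling (median-ratio, TPM, quantile) or the variance model (no trend, robust), added a replicate block, or left out each library in turn. The table of the whole series was not used.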

Additional observations from a re-analysis of the deposited data

How the results depend on the processing

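Under every alternative run, 0 of the 31 genes passed the adjusted limma threshold. Over all genes 0 passed, except 13 without Jintang 3 (range 0 to 13 over the left-out libraries); the cause was not tested. Of 304 member differences under the other alternatives 294 kept their direction and 10 did not. With median-ratio scaling the difference was 0.12 for STAT2, 0.0309 for DHX58, 0.111 for DTX3L, 0.0702 for CMPK2 and 0.0478 for ADAR, and with quantile normalization 0.0740 for STAT2, 0.0389 for DTX3L and 0.0101 for CMPK2. For DTX3L it was 0.00604 with a pseudocount of 0.1 and 0.00722 with 0.01. Breeds did not overlap in 0 genes with median-ratio scaling (9.52% of all genes tested), 3 with TPM scaling (11.05%), 2 with quantile normalization (9.59%), and 3 to 9 with 1 library left out, where fewer samples make this easier (14.14% to 33.63%). The median of the set was between -0.17 and -0.02 with 1 library left out.

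Leaving out each library in turn changed the sign of 18 genes. Their lowest and highest differences were -0.0881 and 0.0737 for STAT2, -0.223 and 0.155 for IRF1, -0.17 and 0.28 for DDX58, -0.0252 and 0.263 for IFIH1, -0.197 and 0.0312 for DHX58, -1.14 and 0.10 for ISG15, -0.12 and 0.26 for TRIM25, -0.403 and 0.0684 for PARP9, and -0.10 and 0.21 for PARP12. They were -0.10 and 0.68 for PARP14, -0.31 and 0.27 for DTX3L, -0.935 and 0.0267 for MX1, -0.134 and 0.0302 for CMPK2, -0.0519 and 0.546 for EIF2AK2, -0.269 and 0.0576 for ADAR, -0.20 and 0.30 for BST2, -0.84 and 0.18 for ISG20, and -0.76 and 0.60 for IFI6. The other 13 kept their direction in every alternative.

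The library order of the set under other scalings was added after seeing the data. With median-ratio scaling 1 gene was highest in Tibetan 1, 6 in Tibetan 3, 10 in Jintang 1 and 1 in Jintang 3, and 2 were lowest in Tibetan 3 and 1 in Jintang 1. With TPM scaling 5 were highest and 1 lowest in Jintang 1, and with quantile normalization 7 were highest and 1 lowest in Jintang 1 and 2 lowest in Tibetan 3. Shares over all genes are not given for these scalings, and median-ratio scaling raises every gene of Jintang 1 the most.

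The replicate numbers are shared by the breeds but did not pair the goats (correlations of same-numbered deviations -0.02, -0.21 and -0.47), and with the replicate block 0 genes passed and the median of the set was -0.08. The promoter motif search was not run, because no promoter sequences were used here. Depth in fragments is unknown, so counting error cannot be given, and with 3 goats per breed the standard errors of 0.24 to 0.69 log2 limit what could be detected.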
